A study of Mus musculus with 2 samples.

Results

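The 10 genes described here build or bind the actin cytoskeleton: the cytoplasmic actins Actb and Actg1, the smooth muscle actin Acta2, the actin-binding transgelins Tagln and Tagln2, the myosin regulatory light chain Myl9, the tropomyosins Tpm1 and Tpm2, and the thymosins Tmsb4x and Tmsb10. They were chosen by symbol, with earlier results of these data known, and are 10 of the 32285 genes counted. GL261 is a mouse glioma cell line from the strain C57BL/6, labelled as astrocytoma. Adherent cells were grown in DMEM to which 10% FBS and Penicillin-Streptomycin at 1% had been added, and neurospheres in the same medium with Epidermal Growth Factor and Fibroblast Growth Factor at 20 ng/ml each and B-27 at 1:50. Adherent cells were detached with trypsin near confluency, neurospheres were treated with trypsin after 12 days and broken up by pipetting, and both were frozen in 10% DMSO. Each phenotype was measured as 1 library of single cells with the 10x Genomics 3' v3 chemistry, so no test was run, and no difference below has a replicate check.

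Actin exists in cells as monomers and filaments. Thymosins bind monomers and keep them from polymerizing. Tropomyosins lie along the filament and set which proteins can reach it, and non-muscle myosin II, switched on through its regulatory light chain, pulls on filaments to give tension. Acta2, Tagln and Myl9 are best known from smooth muscle and myofibroblasts, and many genes of this group are known targets of serum response factor (SRF), whose partner MRTF is held back by free actin monomers, and of YAP and TEAD.

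After filtering, 5051 of 5764 adherent and 4276 of 4951 neurosphere cells were kept, with 46290996 and 64943938 unique molecular identifiers (UMIs, each a tag of 1 captured transcript) on the genes used. The median kept cell held 8260 UMIs in the adherent and 13199 in the neurosphere library. The libraries shared 12 cell barcodes, 9 of them among kept cells. Levels are given as UMIs per 1000000 (CPM), a share of the UMIs in the kept cells and not an amount of RNA per cell. Differences are given as the log2 ratio of the neurosphere to the adherent CPM. Intervals are exact 95% intervals that cover counting error only. Mitochondrial genes (a median of 2.02% and 3.97% of the UMIs of kept cells) and ribosomal genes (29.6% and 16.1%) were left out of the totals, and with them in, the log2 ratio of Actb was 0.85 in place of 0.63 and that of Tpm1 -0.99 in place of -1.21. Scaling the libraries by TMM in place of the total lowered every log2 ratio by 0.22.

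The name of the set held only in part. Acta2 had 15 UMIs in all kept adherent cells and 3 in all kept neurosphere cells. Tagln had 4 and 16 UMIs, and Myl9 had 108 and 39. Acta2 and Tagln were therefore near the limit of detection and Myl9 was low, and nearly all UMIs of the set came from genes that most cell types use. The set took 0.913% of the adherent and 1.20% of the neurosphere UMIs, a log2 ratio of 0.40, of which Actb alone was 0.491% and 0.758%.

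To see how the members differ near their starts, the 250 bases before the RefSeq start of transcription (assembly GRCm38.p6), from which distances to a site are counted, were searched on both strands for the CArG box, the 10-letter site of SRF, and for GGAATG, the core of TEAD sites. RefSeq entries matched 8 of the 10 members, and none was given for Actb or Tagln. Actg1 and Myl9 held a full CArG box, as did 1.62% of the 27025 genes with an entry. These are shown first, up to the earlier start that the GENCODE annotation gives, with the CArG box and, in Myl9, a second match that is 1 letter off in capitals. The Actg1 stretch also covers part of a noncoding gene, 0610009L18Rik, on the other strand.
Actg1, chr11:120348543-120348745, minus strand: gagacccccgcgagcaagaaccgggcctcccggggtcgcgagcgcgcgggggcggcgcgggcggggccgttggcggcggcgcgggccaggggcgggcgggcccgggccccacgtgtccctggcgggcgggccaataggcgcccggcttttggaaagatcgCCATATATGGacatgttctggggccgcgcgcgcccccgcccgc
Myl9, chr2:156775214-156775419, plus strand: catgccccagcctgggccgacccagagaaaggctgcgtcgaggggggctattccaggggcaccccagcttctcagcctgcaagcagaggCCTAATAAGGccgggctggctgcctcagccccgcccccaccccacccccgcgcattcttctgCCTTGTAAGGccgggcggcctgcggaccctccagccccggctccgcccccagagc

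Acta2 and Tpm1 each held 2 sites 1 letter off the CArG box. A full box or one that is 1 letter off lay before 21.1% of all genes with an entry, and before 4 of the 8 members (Actg1, Myl9, Acta2 and Tpm1). The 30 bases around each of these sites are shown with the site in capitals. GENCODE gives Acta2 and Tpm1 earlier starts, so by that annotation both Acta2 sites and the Tpm1 site at 80 bases lie inside the gene.
Acta2 at 84 bases before the RefSeq start, chr19:34255438-34255467, minus strand: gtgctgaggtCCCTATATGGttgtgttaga
Acta2 at 34 bases before the RefSeq start, chr19:34255388-34255417, minus strand: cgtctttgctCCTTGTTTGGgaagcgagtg
Tpm1 at 221 bases before the RefSeq start, chr9:67049415-67049444, minus strand: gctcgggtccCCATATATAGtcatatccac
Tpm1 at 80 bases before the RefSeq start, chr9:67049274-67049303, minus strand: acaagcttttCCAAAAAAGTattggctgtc

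GGAATG lay before the RefSeq start of Tagln2 (at 118 and 80 bases), Tpm1 (at 56 bases) and Acta2 (at 146 bases), 3 of the 8 members, and before 14.4% of all genes with an entry. By the earlier GENCODE starts these matches all lie inside the genes. The Tagln2 matches read on the other strand and appear as their reverse complement. The matches shown are all those found among the members, and the other members with an entry had none.
Tagln2, chr1:172500116-172500145, plus strand: tcctttacggctCATTCCtgcctactgacc
Tagln2, chr1:172500154-172500183, plus strand: taagcgctccagCATTCCacgcggcggcgc
Tpm1, chr9:67049252-67049281, minus strand: tggctgtcctaaGGAATGcggtcgcccccc
Acta2, chr19:34255502-34255531, minus strand: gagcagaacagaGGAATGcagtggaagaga

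No match of these kinds was found before Tpm2, Tmsb4x or Tmsb10. GGGCGG, the core of Sp1 sites, lay before 7 of the 8 members and 35.4% of all genes with an entry, and TATAAA before 0 members and 14.3% of genes. Of the sites in capitals, none overlapped another. A match in a window is only a match of letters, and binding was not measured.

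The 2 cytoplasmic actins, which form the filaments of nearly every cell, were both higher in neurosphere cells. Actb, which the GENCODE annotation of GRCm38 places on the minus strand of chromosome 5 from 142903115 to 142906754, was at 4908 CPM in the adherent and at 7582 CPM in the neurosphere library. That is a log2 ratio of 0.63 (0.62 to 0.63), or 1.54 times. Actg1, on the minus strand of chromosome 11 from 120345690 to 120348542, was at 989 and 1282 CPM, a log2 ratio of 0.37 (0.36 to 0.39). Both ratios kept their sign under TMM scaling (0.41 and 0.16). The median over all genes with at least 50 UMIs was 0.32, and 0.11 with TMM scaling, so Actg1 lay near the typical gene. The share of Actg1 among the UMIs of these actins was 16.8% (16.6 to 16.9) in adherent and 14.5% (14.4 to 14.6) in neurosphere cells, so the balance between them moved little. Their coding sequences are nearly identical and have processed copies in the genome, so how counting split shared reads is uncertain.

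Acta2, the actin of smooth muscle, lies on the minus strand of chromosome 19 from 34241090 to 34255590. Its 15 and 3 UMIs correspond to 0.324 and 0.0462 CPM, a log2 ratio of -2.81 with a wide counting interval (-5.24 to -0.99). It was -0.50 in cells thinned to 5000 UMIs, which held 3 and 2 UMIs of it, and -0.34 with 1 CPM added. With the other muscle actins Acta1, Actc1 and Actg2 at 9 and 6, 0 and 4, and 18 and 21 UMIs, no muscle actin made up more than 0.00659% of the actin UMIs in either phenotype. The actin mRNA of both phenotypes was thus almost wholly cytoplasmic actin.

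**Figure D1:**
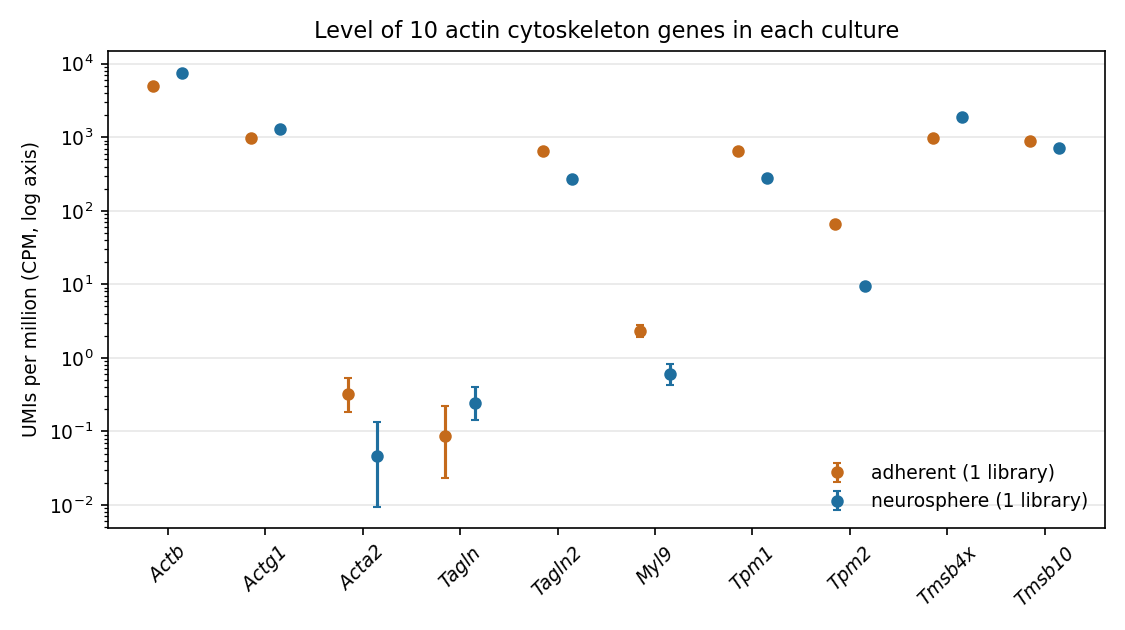
Level of each of the 10 genes in CPM (log axis) in the adherent and the neurosphere library, 1 library each; bars are exact 95% Poisson intervals and are hidden by most points. Actb, Actg1, Tmsb4x and Tmsb10 lie between 705 and 7582 CPM, and Acta2, Tagln and Myl9 between 0.0462 and 2.33 CPM.

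The thymosins, the small proteins that hold actin monomers, went opposite ways. Tmsb4x, on the minus strand of chromosome X from 167207093 to 167209315, was at 965 CPM among adherent cells and at 1903 CPM among neurosphere cells, with a log2 ratio of 0.98 (0.96 to 0.99). Tmsb10, on the minus strand of chromosome 6 from 72957347 to 72958748, was at 896 and 705 CPM, a log2 ratio of -0.35 (-0.37 to -0.33). Tmsb4x thus made up 51.9% (51.5 to 52.2) of the UMIs of these genes in adherent and 73.0% (72.8 to 73.2) in neurosphere cells. Of the remaining thymosins, Tmsb15b2 was at 71 and 560 UMIs, a log2 ratio of 2.49, and Tmsb15a at 1 and 0 UMIs.

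Tropomyosins were lower in neurosphere cells as a family, with 1104 CPM over Tpm1 to Tpm4 in the adherent library and 554 CPM in the other. Tpm1, on the minus strand of chromosome 9 from 67022590 to 67049406, was at 648 CPM in the adherent library against 280 CPM in the neurosphere library, a log2 ratio of -1.21 (-1.24 to -1.18), or 2.31 times lower. Tpm2, on the minus strand of chromosome 4 from 43514711 to 43523765, had 67.1 and 9.64 CPM, a log2 ratio of -2.80 (-2.92 to -2.67), or 6.96 times lower. The other tropomyosins, Tpm3 and Tpm4, were lower by less, with log2 ratios of -0.76 and -0.47. Within the family, Tpm2 made up 6.07% of the UMIs in adherent and 1.74% in neurosphere cells, Tpm1 58.7% and 50.6%, Tpm3 11.9% and 14.0%, and Tpm4 23.4% and 33.6%. The tropomyosin UMIs were therefore shifted from Tpm1 and Tpm2 towards Tpm4. UMIs were counted per gene, so the muscle and non-muscle transcripts that tropomyosin genes are known to make cannot be told apart.

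Tagln2, an actin-binding protein of non-muscle cells, lies at 172500047 to 172507380 on chromosome 1, plus strand. It was at 655 CPM in the adherent library against 271 CPM in the neurosphere library, a log2 ratio of -1.28 (-1.30 to -1.25), or 2.42 times lower. Tagln, the transgelin of smooth muscle, lies on the minus strand of chromosome 9 from 45929619 to 45936058. Its 4 and 16 UMIs gave a log2 ratio of 1.51 whose counting interval (-0.12 to 3.55) holds 0, so no difference was detectable at this depth. Tagln2 was 99.7% of the UMIs of Tagln, Tagln2 and Tagln3 in adherent cells and 98.3% in neurosphere cells, and the neuronal Tagln3 was 0.279% and 1.56%.

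Myl9, a regulatory light chain of myosin II, lies at 156775420 to 156781658 on chromosome 2, plus strand. Its 108 and 39 UMIs correspond to 2.33 and 0.601 CPM, a log2 ratio of -1.96 (-2.53 to -1.42). The light chains Myl12a and Myl12b, which serve the same function, held nearly all UMIs of the 3 genes. Myl9 was 0.316% of them in adherent and 0.0750% in neurosphere cells, Myl12a 70.5% and 61.5%, and Myl12b 29.2% and 38.4%. Summed, the 3 light chain genes were at 738 and 800.2 CPM, a difference smaller than the shift that TMM scaling brings.

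Of the 8 members with at least 50 UMIs over both libraries, Tagln2, Myl9, Tpm1 and Tpm2 were over 2-fold lower in neurosphere cells, against 11.7% of the 14654 genes with as many UMIs, and 0 were over 2-fold higher, against 21.7%. Tmsb4x, at 0.98, was just short of 2-fold and passed it under 6 other settings, among them cells thinned to 5000 UMIs (1.27) and totals that include mitochondrial and ribosomal genes (1.20). With TMM scaling these 4 and 0 members stood beside 14.5% and 16.1% of genes. With a minimum of 500 UMIs, 3 and 0 of 7 members were past 2-fold, beside 8.03% and 19.1% of 10523 genes, and with no minimum 5 and 1 of 10, beside 15.6% and 23.6% of the 19584 genes above 3 UMIs in either library. Over all 10 members the median log2 ratio was -0.78, beside 0.32 over all genes with at least 50 UMIs, and it was -0.99 beside 0.11 with TMM scaling.

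**Figure D2:**
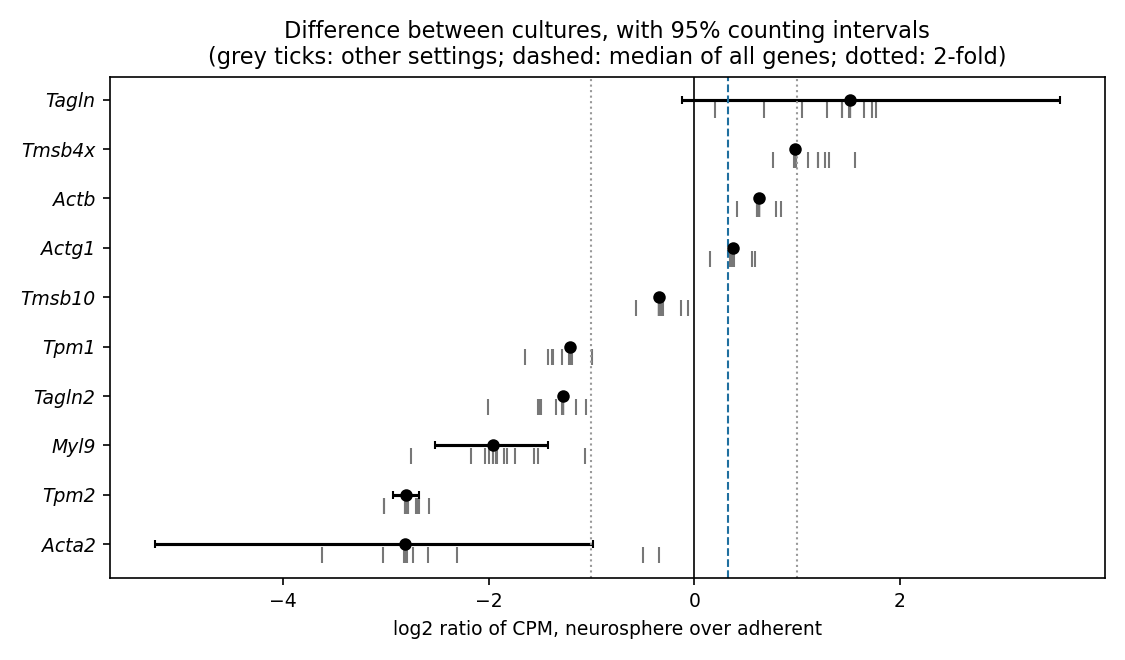
Log2 ratio of CPM, neurosphere over adherent, for each member (black points, with exact 95% counting intervals) and its value under the other settings of cells, scaling and totals (grey ticks). The dashed line is the median of all genes at 0.32 and the dotted lines mark 2-fold; Tagln2, Myl9, Tpm1, Tpm2 and Acta2 lie left of 0 under every setting shown, and Actb, Actg1 and Tmsb4x right of 0.

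To compare single cells at equal depth, each cell was thinned at random to 5000 UMIs, which left 4464 adherent and 4196 neurosphere cells and put aside 587 and 80 as too shallow. As both libraries come from 1 cell line, no cell type that lacks these genes gives a background from free RNA. Actb was seen in 100% and 99.95% of the cells, with a median of 23 UMIs per 5000 in adherent and 33 in neurosphere cells. At least the adherent median of Actb was held by 73.2% of neurosphere and 51.3% of adherent cells, while the 5th percentile was 11 UMIs in both. Actg1, with medians of 4 and 5, was seen in 96.8% and 96.7%. Actb scattered more widely in neurospheres, where its variance was 13.1 times the mean against 4.45 times in adherent cells.

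Tagln2 was seen in 92.0% (91.1 to 92.7) of adherent and 41.7% (40.2 to 43.2) of neurosphere cells, and without thinning in 94.2% and 58.0%. Its median was 3 UMIs per 5000 in adherent and 0 in neurosphere cells. The top 10% of cells held 24.6% of the Tagln2 UMIs in adherent cells but 57.3% in neurosphere cells, with a highest cell of 49 UMIs in the latter. Such a share rises by counting alone as the mean falls, here 3.20 and 1.12 UMIs per 5000, and this part was not taken out. Of neurosphere cells, 13.7% were at or above the adherent median.

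Tpm1 was seen in 91.2% (90.4 to 92.1) of adherent and 55.1% (53.6 to 56.6) of neurosphere cells, or 95.1% and 76.3% without thinning. Its top 10% of cells held 25.3% and 43.5% of its UMIs, at means of 3.20 and 1.23 UMIs per 5000, so the same limit holds. Tpm2 was seen in 26.3% (25.0 to 27.6) and 4.50% (3.90 to 5.18) of cells, or 40.0% and 11.2% without thinning. For both tropomyosins, fewer neurosphere cells had a UMI although these cells were more deeply sequenced.

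Tmsb4x was seen in 71.2% (69.8 to 72.5) of adherent and 89.3% (88.3 to 90.2) of neurosphere cells, or 78.0% and 96.2% without thinning, with medians of 2 and 5 UMIs per 5000. It had the largest variance relative to its mean of the members in both phenotypes, 17.4 and 31.5 times. The top 10% of cells held 52.5% and 49.8% of its UMIs, and the highest cells held 201 and 265 UMIs of 5000. Tmsb10 was even by comparison, seen in 97.8% and 93.5% of cells with medians of 4 and 3, its top 10% of cells holding 21.6% and 24.9%. Acta2 was seen in 3 and 2 thinned cells and Tagln in 2 and 3, and no thinned cell had UMIs of both. Myl9 was seen in 46 adherent and 16 neurosphere cells, 1.03% (0.755 to 1.37) and 0.381% (0.218 to 0.618).

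**Figure D3:**
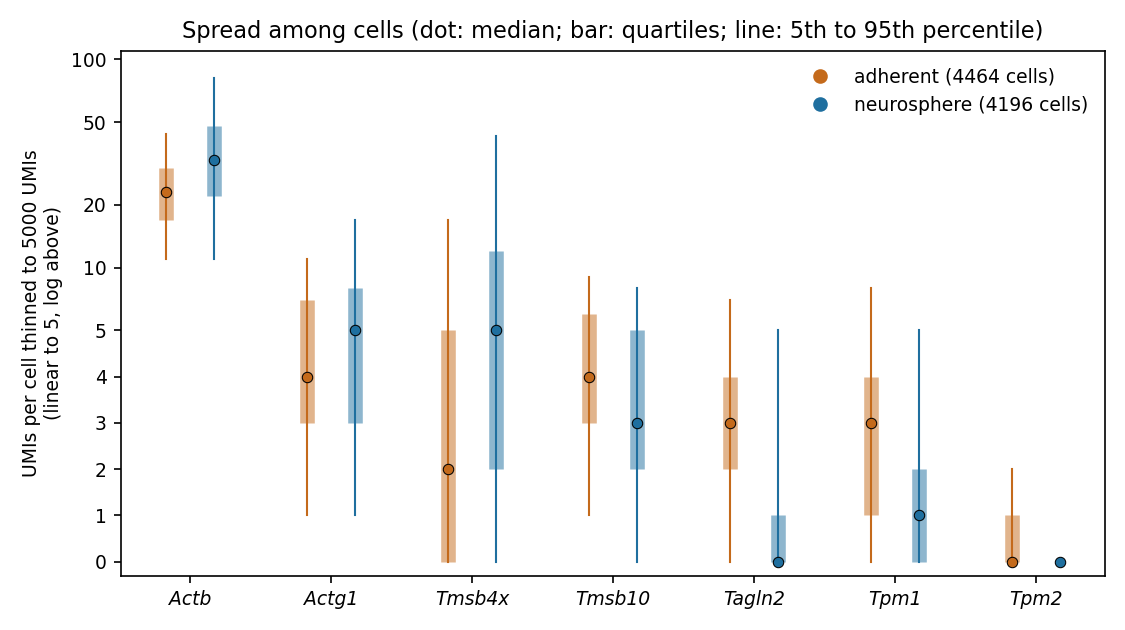
UMIs of 7 members in single cells thinned to 5000 UMIs (axis linear to 5 and logarithmic above), in 4464 adherent and 4196 neurosphere cells: dots are medians, thick bars the quartiles and thin lines the 5th to 95th percentiles. The Tagln2 median is 3 in adherent and 0 in neurosphere cells, and the Actb median 23 and 33.

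The neurosphere levels of some members moved with the depth of the cell. Kept cells were put in 4 groups of about equal size by their UMIs. In the 1069 neurosphere cells with the fewest UMIs (median 7123), Tagln2 was at 104 CPM, and in the 1069 with the most (median 24909) at 361 CPM. Tpm1 went from 177 to 344 CPM between the same groups, and Tmsb4x the other way, from 3225 to 1579 CPM. Myl9, with 39 UMIs over all neurosphere cells, went from 1.60 to 0.314 CPM, and its level in the shallowest neurosphere group lay near the 1.96 CPM of the shallowest adherent group. Tmsb10 (719 and 701 CPM) was nearly level. Actg1 was alike in these groups (1335 and 1370 CPM) but lower in the groups between them (1170 and 1187 CPM). In adherent cells the 4 groups differed less, with Tagln2 at 549 to 727 CPM, Tpm1 at 608 to 663 CPM and Tmsb4x at 795 to 1181 CPM. In cells of 8000 to 12000 UMIs in both libraries (1738 adherent and 1092 neurosphere cells), the log2 ratios were -2.01 for Tagln2, -1.65 for Tpm1, -2.76 for Myl9, -3.01 for Tpm2 and 1.56 for Tmsb4x, each further from 0 than over all kept cells. They were nearer to 0 for Actb (0.62), Actg1 (0.35), Tmsb10 (-0.33) and Tagln (1.05). This range of depth was chosen after the data were seen.

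Each library was clustered on its own with the members left out of the variable genes, which gave 10 clusters per phenotype. Clusters go by number and their 3 leading genes. Of the 8 members with at least 50 UMIs, 1 (Actb) had a range over clusters wholly higher in neurospheres, beside 8.32% of the 14654 genes with as many UMIs, and 1 (Tpm2) a range wholly lower, beside 2.64%. The ranges of Acta2 and Tagln, with fewer UMIs, overlapped. Actb lay at 2477 to 5287 CPM over adherent and 5790 to 9155 CPM over neurosphere clusters, and Tpm2 at 22.7 to 82.8 and 2.24 to 20.1 CPM. Each separation was lost under 1 alternative: Actb overlapped with the members left in the variable genes (adherent up to 5328 and neurosphere from 5221 CPM), and Tpm2 at a resolution of 0.8 (adherent from 15.6 and neurosphere up to 18.9 CPM). Tpm1 overlapped narrowly, with 502 CPM the lowest adherent and 519 CPM the highest neurosphere level, and did not overlap at a resolution of 0.8 (530 and 522 CPM).

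Among neurosphere clusters, Tagln2 ran from 43.7 CPM in cluster 1 (Comp, Pdzd2, Ism1) to 658 CPM in cluster 6 (Wnt7b, Prss56, Igf1). The latter value is as high as the 655 CPM of the adherent library. Tpm1 had its lowest and highest levels in the same clusters, at 110 and 519 CPM. Cluster 1, of 618 cells with a median of 7574 UMIs, was also where Tmsb4x was highest, at 5025 CPM, while Tmsb4x was at 1839 CPM in cluster 6, whose 384 cells had a median of 22158 UMIs. These clusters lie at opposite ends of the range of depth, and the part of depth in the difference between them was not tested.

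Cluster 5 (Nppb, Chit1, Cyp4f18; 421 cells) was high in several members at once: it had the highest Actg1 (2031 CPM), Tmsb10 (989 CPM) and Tpm2 (20.1 CPM) of the neurosphere clusters and 3489 CPM of Tmsb4x. Tmsb4x was lowest in cluster 3 (Rrm2, Ccne2, Tk1, genes of DNA synthesis and entry into it), at 1070 CPM. Tpm2 was lowest, at 2.24 CPM, in cluster 7, where Mbp, a main protein of myelin, was among the leading genes with Dusp15 and Gm4876. Actb was highest in cluster 2 (6030498E09Rik, Prr16, Slit2), at 9155 CPM.

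Adherent clusters were closer together, with 1 exception. Cluster 9 (Lars2, Pcdh9, 4921507G05Rik) held 48 cells with a median of 2624 UMIs and had the lowest level of Actb (2477 CPM), Actg1 (265 CPM), Tagln2 (136 CPM), Tpm2 (22.7 CPM), Tmsb4x (144 CPM) and Tmsb10 (326 CPM). In the remaining 9 clusters, Tagln2 lay between 501 and 823 CPM and Tpm1 between 502 and 796 CPM. Tmsb4x still varied among them, from 494 CPM in cluster 5 (Gm8251, Utp14b, Cdc20) to 2210 CPM in cluster 8 (Egflam, Osbp2, Shisa8).

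**Figure D4:**
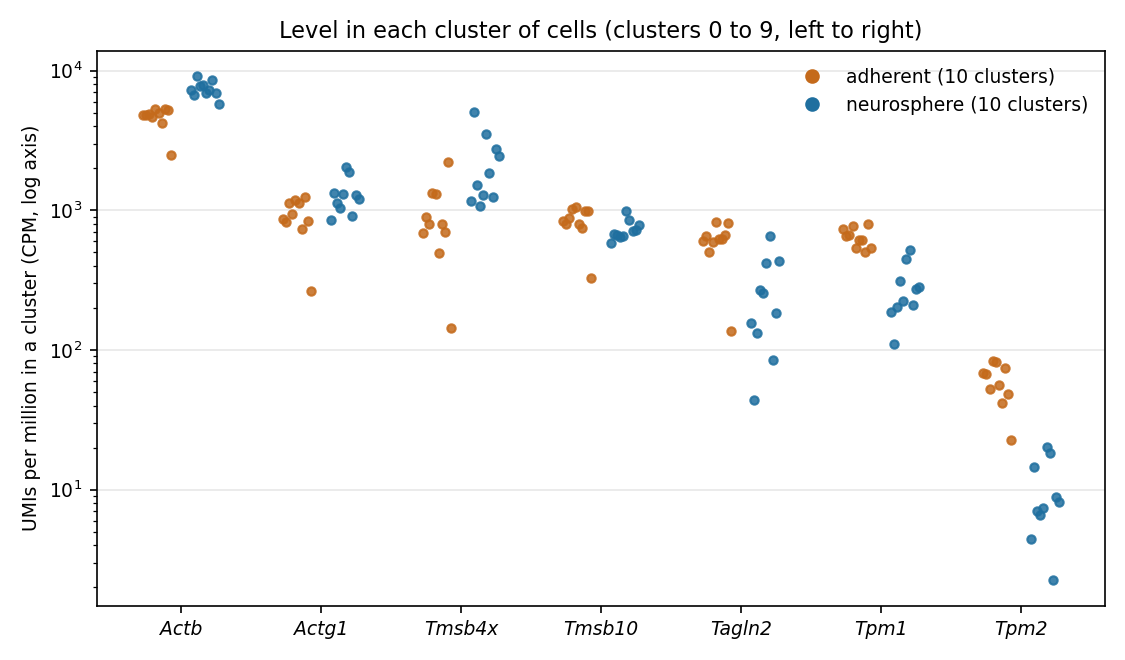
Level of 7 members in CPM (log axis) in each of 10 adherent and 10 neurosphere clusters, drawn from cluster 0 at the left to cluster 9 at the right within each column of points. Actb and Tpm2 are apart between the phenotypes in this clustering (Actb not with members left in, Tpm2 not at a resolution of 0.8), Tagln2 spans 43.7 to 658 CPM over neurosphere clusters, and the low adherent point of most genes is cluster 9.

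Over single thinned cells, correlations between members were at most 0.30. With medians of 0 to 5 UMIs for all but Actb, counting noise limits how high they can be, so they do not show how loosely the members varied together. The values that follow are Pearson correlations of log values over 4464 adherent or 4196 neurosphere cells, which share a library and a depth of 5000 UMIs, and serve as descriptions. Among neurosphere cells, Tagln2 and Tpm1 had r = 0.30, Actg1 and Tmsb4x 0.21, Actg1 and Tagln2 0.19, Tagln2 and Tmsb10 0.17, and Tmsb4x and Tmsb10 0.16. In adherent cells the highest pair, Tmsb4x and Tmsb10, had 0.11.

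The genes most like a member were named where r was at least 0.2, among 5710 genes in adherent and 6658 in neurosphere cells. Actb was most like Cbx3, a heterochromatin protein, in both phenotypes (0.29 and 0.32), followed in neurospheres by Kdelr2 (0.29) and Ppp1r14b (0.26). Tagln2 was most like Lgals1, a galectin, in both (0.21 and 0.41), followed in neurospheres by S100a10 (0.38) and S100a6 (0.37), which encode calcium-binding proteins. Lgals1 was also first for Actg1 (0.29) and Tmsb10 (0.23) in neurospheres, and was named for Tpm1 (0.26) after Tagln2 and Syt4 (0.28).

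Tmsb4x was most like Krt8, a keratin of simple epithelia, in neurosphere cells (0.38), with Cstb (0.31) and Col18a1 (0.30) next. In adherent cells it was most like Ly6a (0.27) and Cd81 (0.21). Actg1 was most like Vim (0.22) and Tm4sf1 (0.21) in adherent cells, with Cstb (0.25) and S100a6 (0.24) after Lgals1 in neurospheres. No gene reached 0.2 for Tpm1, Tpm2 or Tmsb10 in adherent cells. Tpm2 was not compared in neurospheres, nor Acta2, Tagln and Myl9 in either phenotype, since under 10% of thinned cells had a UMI.

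Other genes of actin biology were examined as lists, among genes with at least 50 UMIs, of which 21.7% were over 2-fold higher and 11.7% over 2-fold lower in neurosphere cells. For the counts under other settings below, these shares were 16.1% and 14.5% with TMM scaling. They were 23.6% and 15.6% with no minimum, and 19.1% and 8.03% with at least 500 UMIs. Of 15 genes of myosin II and its control, 2 were over 2-fold higher and 4 over 2-fold lower in neurosphere cells, with a median log2 ratio of 0.13. The small GTPase Rhob (2.15) and the myosin phosphatase subunit Ppp1cb (1.73) were the highest, and the filament-binding Cald1 (-1.79) and the GTPase Rhoc (-1.48) were the named lowest. Of 14 genes of actin turnover, 2 were over 2-fold higher and 0 lower, with a median of 0.39, and 1 and 2 with TMM scaling. Wdr1 (2.65), a helper of cofilin, and the profilin Pfn2 (1.06) were the highest, and the filament-severing Gsn (-0.99) and capping Capg (-0.89) the lowest. The median of actin turnover thus lay near the 0.32 of all genes.

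Of 16 genes of Arp2/3 and WAVE nucleation, which start branched filaments, 2 were over 2-fold higher and 1 lower, with a median of 0.08. The Arp2/3 subunit genes Arpc1a and Arpc1b, which encode alternative forms, went opposite ways, from 337 to 1355 CPM and from 1423 to 937 CPM. Wasf1 was at 2.63 and Arpc5l at -1.01. Of 22 cross-linkers and adhesion linkers, 1 was over 2-fold higher and 4 lower, with a median of -0.19, and 0 and 7 with TMM scaling. Lima1 (1.19) and the cross-linker Actn1 (0.96) were the named highest and Pdlim7 (-1.91) and Tes (-1.44) the named lowest.

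Of 7 other tropomyosins, tropomodulins, transgelins and thymosins, 2 were over 2-fold higher, Tmsb15b2 and Tagln3 (1.23), and 0 lower, with a median of 0.42. Of 11 smooth muscle contractile genes, 4 had at least 50 UMIs, of which 1 was over 2-fold higher and 2 lower, or 0 and 2 with TMM scaling. With no minimum these were 1 and 5 of 10 genes, and with at least 500 UMIs 0 and 0 of 1. Des was at 203 and 46 UMIs (-2.63), Synm at 42 and 15 (-1.97), and Lmod1 at 73 and 233 (1.19), while Smtn was at 0.09 and turned to -0.13 with TMM scaling. Like Acta2 and Tagln, the smooth muscle genes Cnn1 (25 and 3 UMIs), Myh11 (20 and 9 UMIs) and Myocd (1 and 3 UMIs) were near 0 in both phenotypes. The summed level of the 11 genes was 17.4 and 14.5 CPM. Cnn1, Myh11 and Myocd were chosen after their values were seen.

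Among 9 SRF and MRTF factors and other targets, 2 were over 2-fold higher and 2 lower, with a median of 0.49, and 1 and 2 with TMM scaling. With no minimum they were 2 and 5 of 13, and with at least 500 UMIs 1 and 1 of 7. The MRTF gene Mrtfa was at 16.3 and 33.7 CPM (1.05), Ccn1 at 44.8 and 21.6 CPM (-1.05), Fhl1 at 8 and 48 UMIs (2.10) and Fhl2 at 268 and 38 UMIs (-3.31). SRF itself, encoded by Srf, was at 8.51 and 11.9 CPM, and Ccn2 at 30 and 1 UMIs, and both were chosen after their values were seen. Genes of this list thus lay on both sides of 0, and the part of SRF and MRTF in the members' levels was not tested. Of the 8 immediate early genes, which respond to serum, growth factors and the breaking up of tissue, 2 were over 2-fold higher and 2 lower, with a median of 0.71, and 1 and 2 with TMM scaling. Egr1 (1.89) and Fosb (1.06) were the highest and Atf3 (-1.16) and Dusp1 (-1.09) the lowest. The neurospheres were broken up by pipetting and the adherent cells were not, and the part of this step in the members' levels was not tested.

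**Figure D5:**
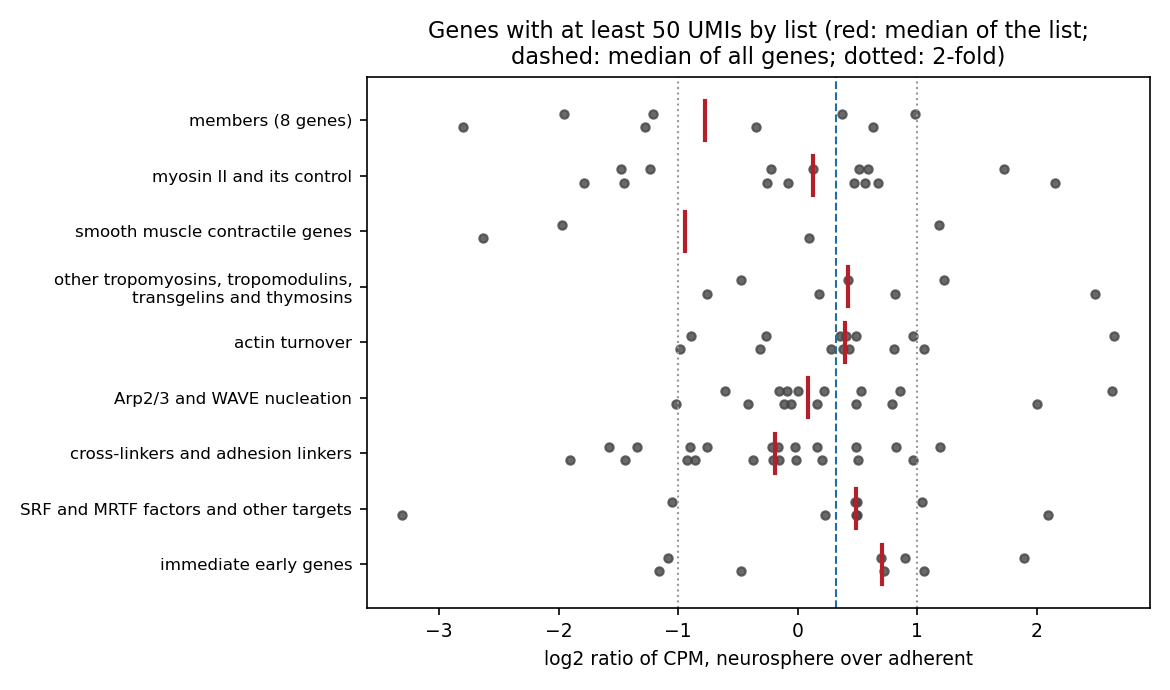
Log2 ratio of CPM, neurosphere over adherent, of each gene with at least 50 UMIs in the members and 8 lists of related genes; red lines are list medians, the dashed line is the median of all genes at 0.32 and the dotted lines mark 2-fold. The members' median is -0.78 and that of actin turnover 0.39.

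Markers of other cells that carry contractile genes were looked up in the same sums. Of 7 pericyte and smooth muscle markers, Rgs5 (1 and 9 UMIs), Kcnj8 (2 and 0) and Abcc9 (1 and 2) were at or near 0, Pdgfrb was at 32 and 4 UMIs, Notch3 at 33 and 13, and Cspg4 and Mcam, which glioma cells also express, were at 16.9 and 34.6 CPM and at 21.9 and 247 CPM. Of 6 fibroblast markers, 4 were over 2-fold higher in neurosphere cells among the 5 with at least 50 UMIs: Col1a1 (2.51 and 329 CPM), Col3a1 (3.87 and 178 CPM), Dcn (1 and 3606 UMIs) and Lum (0 and 143 UMIs). Col1a2, which pairs with Col1a1 in collagen, had 1 and 23 UMIs, and Pdgfra had 6.61 and 4.87 CPM. The summed level of the fibroblast list was 13.0 and 570 CPM, and its part in the members' levels was not tested.

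Of 5 endothelial markers, Cdh5 was at 0 in both libraries, Kdr at 0 and 2 UMIs, Cldn5 at 1 and 0, Tek at 7 and 36, and Pecam1 at 61 and 208 UMIs (a log2 ratio of 1.28), and the sum was 1.49 and 3.79 CPM. Of 8 immune cell markers, Tyrobp and C1qa were at 0 in both, Ptprc at 1 and 0 UMIs, Aif1 at 2 and 0, Itgam at 0 and 2, Csf1r at 5 and 19, Fcer1g at 13 and 33 and Cd68 at 485 and 276, and the sum was 10.9 and 5.08 CPM. Of the 9 glioma and glial markers, Sox2 was at 209 and 180 CPM, Olig2 at 69.8 and 465 CPM, Nes at 104 and 201 CPM, Slc1a3 at 370 and 80.5 CPM, S100b at 161 and 255 CPM and Aldh1l1 at 3.63 and 5.39 CPM. Vim, an intermediate filament gene, was at 5583 and 1763 CPM. Gfap had 30 and 27 UMIs and Aqp4 had 0 in both libraries. Of the astrocyte genes on this list, Slc1a3 and S100b were thus present in cells labelled as astrocytoma. Aldh1l1 was low, seen in 1.64% of adherent and 2.34% of neurosphere thinned cells, and Gfap and Aqp4 were near 0 or at 0.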

How the data were processed

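Single-cell libraries of adherent and neurosphere GL261 cells (1 each) were made by the 10x Genomics 3' v3 protocol. The authors deposited raw UMI counts per gene and cell for the cells called, with no normalization. The submitters' processing notes name Cell Ranger 7.0.1 and mm10. Whether reads in introns were counted, and the annotation, are not given in the sources used here.

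From these counts, 13 mitochondrial (mt-) and 101 ribosomal (Rps, Rpl) genes were dropped, then cells under 1000 UMIs, or under 1250 (adherent) or 2250 (neurosphere) detected genes. Before this, called cells held 68531063 and 82832873 UMIs. No doublets were removed, and leaving out cells over the 95th percentile of UMIs was an alternative. UMIs were summed over kept cells per library and divided by the total. Intervals were exact Poisson (levels), conditional binomial (ratios) and Clopper-Pearson (shares). With 1 library per phenotype no model was fitted. A gene with 0 UMIs was set to 3 counts only for fold counts and list medians. Seurat 5.3.0 (R 4.3.3) clustered each library with 2000 variable genes less the members (1993 and 1995 left), 17 and 18 PCs and a resolution of 1.0. TMM came from edgeR 4.0.16. The rest ran in Python 3.11.15 (pandas 2.3.3, numpy 2.4.6, statsmodels 0.14.6, scipy 1.17.1, matplotlib 3.10.9). Gene positions came from GENCODE (GRCm38, 32158 of 32285 identifiers matched) and promoters from RefSeq (GRCm38.p6).

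The members and gene lists were chosen with earlier results of these data known. Named are all members, the 2 highest and 2 lowest genes of each list with at least 3 genes at 50 UMIs or more (ranked by log2 ratio with 1 CPM added), marker genes at their levels, the 3 genes most like a member where r was at least 0.2, the 3 leading genes of a cluster (at least 100 UMIs in the library), and genes said to be chosen later. Alternatives covered cell filters, totals, scaling, thinning, 1 CPM added, gene length, the minimum of UMIs, clustering resolution and members left in the clustering.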

Additional observations from a re-analysis of the deposited data

How the results depend on the processing

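Over 14 alternatives of cells, totals and scaling, no log2 ratio of a member with at least 50 UMIs changed sign. Members over 2-fold lower numbered 3 to 5 against 4: 3 with mitochondrial and ribosomal genes in the total, where Tpm1 was at -0.99, or with at least 500 UMIs, which leaves out Myl9, and 5 with no minimum, which adds Acta2. Members over 2-fold higher numbered 1 in place of 0, namely Tmsb4x, without cells over the 95th percentile of UMIs, with mitochondrial and ribosomal genes in the total, by the mean over cells of UMIs per 10000, when thinned to 5000 UMIs, with the gene length trend removed and in cells of 8000 to 12000 UMIs, and 1, namely Tagln, with no minimum. Tmsb4x lay at 0.98, just short of 2-fold, and ranged from 0.76 to 1.56. The median log2 ratio of the members was -0.80 without cells over the 95th percentile, -0.56 with mitochondrial and ribosomal genes in the total, -0.99 with TMM scaling, -0.85 by the mean over cells, -0.40 thinned, -0.34 with 1 CPM added, -0.60 with the length trend removed and -0.99 in cells of 8000 to 12000 UMIs, against -0.78. Acta2 and Tagln, each under 50 UMIs, count in the members' median. The thinned median and that with 1 CPM added rest in large part on Acta2, whose ratio went from -2.81 to -0.50 and -0.34. Beside the members' medians, that of all genes with at least 50 UMIs lay between 0.10 and 0.54. The ratio of Tmsb10 came nearest to 0, at -0.06 with the length trend removed. Clustering at a resolution of 0.8 gave 8 clusters per phenotype. In it, the highest over the lowest cluster moved for Actg1 from 4.70 to 2.69 times in adherent cells and for Tpm2 from 8.99 to 5.29 times in neurosphere cells.

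Counting error limits Acta2, Tagln and Myl9, whose sums are 3 to 108 UMIs per library. For the others it is small, and what the intervals leave out is the variation between cultures, which 1 library per phenotype cannot show. Culture medium, dissociation and library differ together between the phenotypes and cannot be told apart. Depth per cell also differs, and at 5000 UMIs per cell the log2 ratio was -1.51 for Tagln2, -1.38 for Tpm1, -2.70 for Tpm2 and 1.27 for Tmsb4x. No paired analysis was possible because each phenotype has 1 library and no test was run.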

Other observations

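The barcodes that the filter left out, 713 adherent and 675 neurosphere, had a median of 301 and 106 UMIs on the genes used and of 48.8% and 87.0% mitochondrial UMIs, and they also held transcripts of the members. The sums that follow are not the level of a typical one of them: the 10% with the most UMIs, 71 and 68 barcodes with a median of 1699 and 3953 UMIs and of 6.97% and 5.10% mitochondrial UMIs, held 32.4% and 48.5% of all their UMIs and 52.2% and 67.0% of their Tmsb4x UMIs. Among the neurosphere barcodes left out, Tmsb4x was at 3887 CPM (3728 to 4052), above the 1903 CPM of the kept cells, and Actg1 at 1742 CPM (1636 to 1853), above 1282 CPM. Actb, at 7498 CPM (7276 to 7725), was near the 7582 CPM of the kept cells. Among the adherent barcodes left out, Tmsb4x was at 934 CPM (840 to 1034), close to the 965 CPM of the kept cells, while Actb was at 3326 CPM (3148 to 3512) against 4908 CPM and Tagln2 at 357 CPM (300.4 to 421) against 655 CPM. The order of the phenotypes was the same as in the kept cells for the 7 abundant members except Tmsb10, which was at 531 and 720 CPM among barcodes left out and at 896 and 705 CPM among kept cells.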
